A study of Caenorhabditis elegans with 22 samples.

Results

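The genes described here are those whose mRNA was raised in wild-type C. elegans embryos exposed to 500 mM NaCl and for which less than 50% of that change was left in both daf-16 and ssu-1 mutant embryos. They are 45 of the 45460 named genes in the data. The change of a gene was its mean FPKM (a fragment count corrected for transcript length and library size) at 500 mM NaCl over its mean FPKM at 50 mM NaCl plus 1. As 1 was added only to the 50 mM mean, a gene near or under 1 FPKM can have a change under 1 although its mean rose. A gene was kept when its change was above 2 in wild-type embryos of both experiments and the change in the mutant was under 50% of the wild-type change in both. The share kept, used below, is the mutant change in percent of the wild-type change. A gene that was not raised at 500 mM in a mutant still has such a share, and a larger one where the wild-type change was small. In all, 202 genes had a wild-type change above 2 in both experiments and 59 of these also met the condition on the mutants, of which 14 were left out by name (among them the heat-shock genes of the F38E11 cluster, the peptide genes of C37A5, lea-1 and sod-5). The genes were thus chosen by the measured changes in both genotypes, so the induction in wild type and its loss in the mutants are given as a description, with no test.

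Embryos were kept for 3 h on medium with 500 mM or 50 mM NaCl, and mRNA was measured by RNA-seq in 22 libraries. Experiment 2 held 3 libraries each of daf-16 embryos at 500 mM, daf-16 embryos at 50 mM, wild-type embryos at 500 mM and wild-type embryos at 50 mM. Experiment 1 held 3 libraries of ssu-1 embryos at 500 mM, 2 of ssu-1 embryos at 50 mM, 3 of wild-type embryos at 500 mM and 2 of wild-type embryos at 50 mM. The wild type was the Bristol strain N2 and is called N2 below. The growth protocol and the study's methods name the alleles daf-16(m26) and ssu-1(fc73), but the strain labels list more. For the daf-16 libraries they give both m26 and mu86. For the ssu-1 libraries they give fc73, n5883 and tm1117, together with gk266317, gk747222, gk876992 and gk319712, and also zIs356, a transgene that expresses DAF-16a/b fused to GFP from the daf-16 promoter with a rol-6 marker. Which of these each library carried is not settled by the labels. Each mutant was measured in its own experiment with its own N2 libraries, so a difference between the mutants cannot be told apart from a difference between the experiments.

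DAF-16 is the FOXO transcription factor of C. elegans, which is held in the cytoplasm by insulin-like signaling and enters the nucleus to switch on stress-resistance and metabolic genes when that signaling falls. SSU-1 is a cytosolic sulfotransferase, an enzyme that adds sulfate groups to small molecules, and it acts in the ASJ sensory neurons. In this species high salt around the embryo can arrest development, and the comparison asks which salt-induced genes need both proteins.

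The ssu-1 gene itself was at 1.64, 1.74 and 1.21 FPKM in ssu-1 embryos at 500 mM, against 2.83, 2.99 and 2.74 FPKM in N2 embryos, and at 0.93 and 0.37 FPKM in ssu-1 embryos at 50 mM, against 2.35 and 1.78 FPKM in N2 embryos, so each mutant library was below each N2 library of the same NaCl concentration. The mRNA of daf-16 was not lower in daf-16 embryos, at 206, 289 and 253 FPKM at 500 mM, against 249.7, 219.7 and 217 FPKM in N2 embryos. At 50 mM it was higher, at 149, 156 and 155 FPKM in daf-16 embryos, against 88.5, 91.2 and 74.0 FPKM in N2 embryos (log2 difference 0.86, SE 0.12, adjusted p = 0.0021 by limma), so its level does not check that label. By a rough estimate from the spacing of low FPKM, the libraries held between 14600000 and 26700000 fragments, with a median of 21600000, and no pair of libraries had identical values. The summed FPKM of 18 early-embryo genes was 292 to 540 in daf-16 embryos at 500 mM and 210 to 220 in N2 embryos of experiment 2, against 80.8 to 107 and 63.8 to 171 at 50 mM. In experiment 1 it was 174 to 227 in ssu-1 embryos at 500 mM and 177 to 374 in N2 embryos, against 164 to 189 and 109 to 154 at 50 mM. The summed FPKM of 18 genes of late differentiation was 10585 to 12184 in daf-16 embryos at 500 mM and 12361 to 13177 in N2 embryos of experiment 2, against 15506 to 15929 and 13745 to 16762 at 50 mM. In experiment 1 it was 10034 to 10477 in ssu-1 embryos at 500 mM and 10333 to 11493 in N2 embryos, against 11646 to 12313 and 12477 to 13194 at 50 mM. At 500 mM the sum of the early list was thus higher in N2 embryos of both experiments and in daf-16 embryos, with overlap in ssu-1 embryos. The sum of the late list was lower in every genotype of both experiments with no overlap, but its genes did not all fall. Over the 17 late genes that passed a filter on low values, the median N2 change was 0.837 in experiment 2 and 0.846 in experiment 1. In experiment 2, 3 of them had an N2 change above 2 (dpy-7 3.47, lam-1 3.08 and dpy-10 2.55), and in experiment 1 none had. The part of either list in the change of the 45 genes, none of which is on these lists, was not tested. Yolk protein and sperm genes, which would mark adult tissue, summed to at most 2.7 and 2.48 FPKM in any library.

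In N2 embryos the 45 genes were mostly low at 50 mM and reached high levels at 500 mM. The median over the genes of their mean level was 73.8 FPKM at 500 mM and 3.39 FPKM at 50 mM in experiment 2, and 14.8 FPKM at 500 mM and 0.92 FPKM at 50 mM in experiment 1. In daf-16 embryos the median level at 500 mM was 5.08 FPKM, and in ssu-1 embryos it was 1.19 FPKM. The median change was 1.32 in daf-16 embryos, against 20.9 in N2 embryos of the same experiment (range 2.2 to 374), and 0.746 in ssu-1 embryos, against 5.99 in N2 embryos of the same experiment (range 2.03 to 35.5). At 500 mM every mutant library was below every N2 library for 45 of 45 genes in both experiments. Among all genes that passed a filter on low values (2 or more libraries of the experiment with an FPKM of 1 or more), this held for 24.3% with daf-16 and 9.12% with ssu-1, and for the 45 genes the rule itself set this contrast. In bulk embryos, fewer cells that express a gene and less of its mRNA per cell cannot be told apart. All 45 genes passed the filter in both experiments, and the rule held for 0.326% of the 13792 genes that did.

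**Figure D1:**
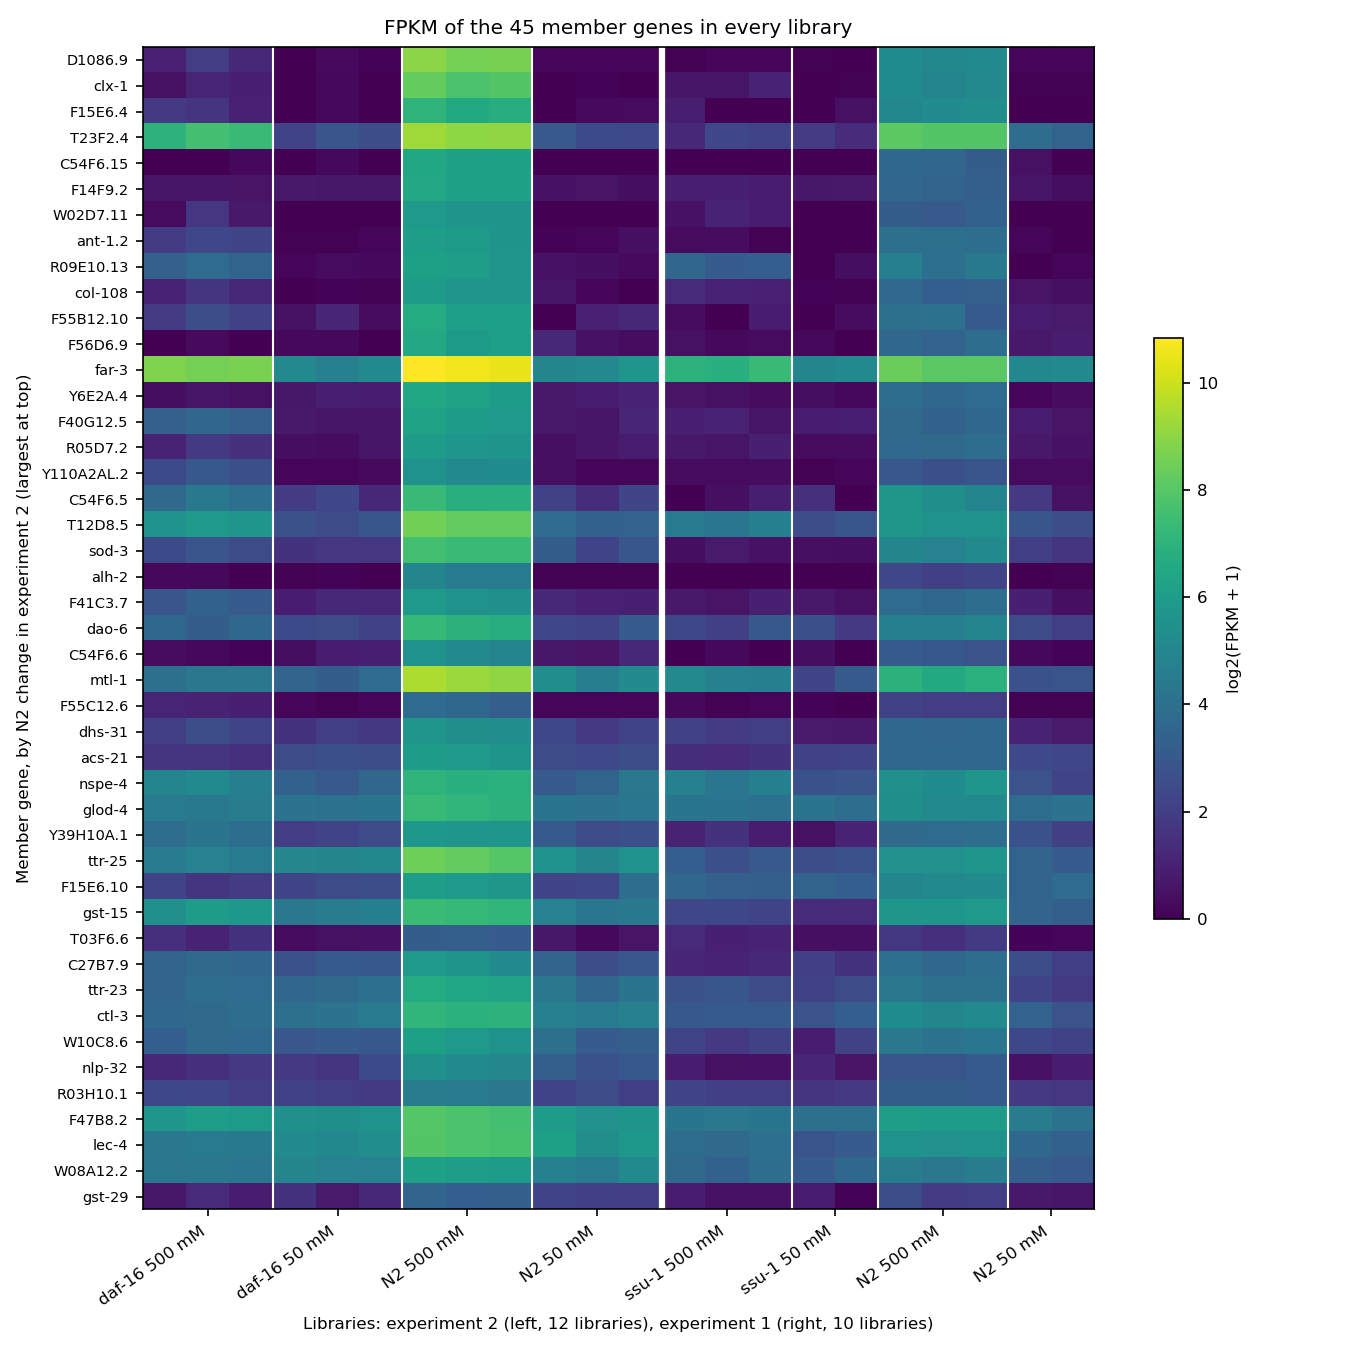
FPKM of the 45 genes (rows, ordered by the N2 change in experiment 2) in each of the 22 libraries (columns), as log2(FPKM + 1), with experiment 2 on the left and experiment 1 on the right. The 3 N2 libraries at 500 mM stand out in both experiments, and the brightest row is far-3, at 1482 to 1838 FPKM in N2 embryos at 500 mM in experiment 2.

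Of the 45 genes, 8 encode enzymes or metal-binding proteins of redox balance and detoxification. The most widely used marker of DAF-16 activity among them is sod-3, a mitochondrial manganese superoxide dismutase. It was at 4.41, 6.18 and 4.66 FPKM in daf-16 embryos at 500 mM, against 190.0, 164 and 160.0 FPKM in N2 embryos of that experiment. It was at 0.33, 0.73 and 0.43 FPKM in ssu-1 embryos at 500 mM, against 30.2, 26.9 and 34.7 FPKM in N2 embryos of that experiment. All mutant libraries lay far below the N2 libraries, and in ssu-1 embryos sod-3 at 500 mM was near its level at 50 mM (0.36 and 0.32 FPKM). Of the N2 change of sod-3, 24.2 in experiment 2 and 8.55 in experiment 1, daf-16 embryos kept 6.63% and ssu-1 embryos 4.33%. The other members of the family that the rule could keep (sod-1, sod-2 and sod-4) had N2 changes near 1, the lowest being 0.771.

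Metallothionein mtl-1, which binds metal ions and is another DAF-16 target, was at 15.3, 18.7 and 18.7 FPKM in daf-16 embryos at 500 mM, against 726, 598 and 526 FPKM in N2 embryos. In experiment 1 it was at 33.5, 25.4 and 24.4 FPKM in ssu-1 embryos at 500 mM, against 124, 94.7 and 121 FPKM in N2 embryos. The groups did not overlap, but in ssu-1 embryos mtl-1 still stood above its level at 50 mM (3.77 and 7.57 FPKM), and the change kept there was 25.3%, against 8.47% in daf-16 embryos. The other metallothionein gene, mtl-2, had N2 changes of 0.0457 in experiment 2 and 0.489 in experiment 1. Catalase gene ctl-3, whose product breaks down hydrogen peroxide, was at 11.7, 12.4 and 14.1 FPKM in daf-16 embryos at 500 mM, against 141, 122 and 126 FPKM in N2 embryos, and at 6.95, 7.35 and 7.41 FPKM in ssu-1 embryos, against 37.8, 30.5 and 36.0 FPKM in N2 embryos. Its level at 500 mM lay below that at 50 mM in daf-16 embryos (14.8, 16.6 and 20.2 FPKM) and between the 50 mM libraries in ssu-1 embryos (5.80 and 8.37 FPKM). The neighboring catalase genes ctl-2 and ctl-1 had N2 changes between 0.944 and 1.65, and since the catalase genes are alike in sequence, counting could have shared reads among them.

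The glutathione S-transferases, which join glutathione to reactive compounds, gave 2 of the 45 genes, out of 36 gst genes that passed the filter. Over the family the median N2 change was 0.258 in experiment 2 and 0.614 in experiment 1, so a change above 2 was unusual for it. gst-15 was at 42.7, 62.1 and 54.1 FPKM in daf-16 embryos at 500 mM, against 165, 149 and 141 FPKM in N2 embryos, and at 3.91, 4.05 and 3.68 FPKM in ssu-1 embryos at 500 mM, against 51.9, 51.5 and 55.3 FPKM in N2 embryos. It kept a change in both mutants, 33.9% of the N2 change in daf-16 embryos and 31.1% in ssu-1 embryos. Its neighbors by name in the F37B1 cluster did not share this, since gst-24, gst-12, gst-14 and gst-16 had N2 changes between 0.0059 and 0.658, and gst-19 had 1.14 and 1.73. gst-29 was the weakest of the 45 in experiment 2, with an N2 change of 2.2, and reached 0.63, 1.53 and 0.78 FPKM in daf-16 embryos at 500 mM, against 10.6, 8.33 and 8.63 FPKM in N2 embryos. Reads of such near copies could have been split in counting, so the levels of the gst genes are uncertain.

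The other genes of this group are glod-4, a glyoxalase that removes methylglyoxal, the aldehyde dehydrogenase gene alh-2 and the short-chain dehydrogenase gene dhs-31. glod-4 was at 21.9, 20.1 and 22.3 FPKM in daf-16 embryos at 500 mM, against 164, 139.5 and 123 FPKM in N2 embryos, and at 50 mM it averaged 16.6 ± 0.455 FPKM in daf-16 embryos and 16.9 ± 1.17 FPKM in N2 embryos (SD, n = 3 each). alh-2 was listed at 0 in all 5 ssu-1 libraries, against 3.96, 3.18 and 3.54 FPKM in N2 embryos at 500 mM and 0 and 0.03 FPKM in N2 embryos at 50 mM. In experiment 2 it was at 0.17, 0.16 and 0 FPKM in daf-16 embryos, against 30.2, 21.98 and 21.2 FPKM in N2 embryos at 500 mM. So for alh-2 almost none of the N2 change was left in either mutant (0.446% with daf-16 and 0% with ssu-1), whereas dhs-31 kept 11.5% and 30.5%. Over the 8 genes the share kept ran between 0.446% and 33.9% in daf-16 embryos and between 0% and 43.6% in ssu-1 embryos.

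Of the lipid genes, far-3 had the highest level among the 45 in N2 embryos at 500 mM in experiment 2, while in experiment 1 its N2 libraries overlapped those of T23F2.4. It encodes a fatty acid and retinol binding protein and was at 430.1, 383 and 405 FPKM in daf-16 embryos at 500 mM, against 1838, 1579 and 1482 FPKM in N2 embryos. In experiment 1 it was at 127, 119 and 156 FPKM in ssu-1 embryos at 500 mM, against 333, 265 and 271 FPKM in N2 embryos. Its groups did not overlap, but its mutant levels at 500 mM were well above those at 50 mM (32.9, 25.2 and 34.0 FPKM in daf-16 embryos and 30.9 and 34.96 FPKM in ssu-1 embryos), so that far-3 kept the largest share of all in ssu-1 embryos, 46.9%, and 30.4% in daf-16 embryos. The acyl-CoA synthetase gene acs-21, whose kind of enzyme activates fatty acids, behaved otherwise. It was at 2.09, 2.13 and 1.82 FPKM in daf-16 embryos at 500 mM, against 61.6, 54.9 and 47.9 FPKM in N2 embryos, and at 1.69, 1.63 and 2.03 FPKM in ssu-1 embryos, against 11.7, 11.8 and 11.8 FPKM in N2 embryos. In the mutants it was lower at 500 mM than at 50 mM, where it stood at 4.63, 5.20 and 5.08 FPKM in daf-16 embryos and 3.46 and 3.70 FPKM in ssu-1 embryos, with no overlap in either.

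Among the genes with the largest N2 changes, D1086.9 and clx-1 had almost no mRNA outside N2 embryos at 500 mM. D1086.9 was at 1.01, 2.96 and 1.34 FPKM in daf-16 embryos at 500 mM, against 493, 386 and 397 FPKM in N2 embryos, a change of 374 in N2. In experiment 1 it was at 0.06, 0.13 and 0.15 FPKM in ssu-1 embryos at 500 mM, against 37.4, 32.2 and 34.2 FPKM in N2 embryos. At 50 mM every library had 0.22 FPKM of D1086.9 or less, and the share kept was 0.426% in daf-16 embryos and 0.356% in ssu-1 embryos. clx-1 resembled it, at 0.42, 1.16 and 0.94 FPKM in daf-16 embryos at 500 mM, against 308, 214 and 248 FPKM in N2 embryos, and at 0.57, 0.54 and 1.08 FPKM in ssu-1 embryos, against 37.8, 28.7 and 33.01 FPKM in N2 embryos. D1086.9 and clx-1 have 1 exon each in their longest coding transcript and encode 685 and 557 residues. The other gene with 1 exon among the 45 is ant-1.2, an adenine nucleotide translocator that exchanges ADP and ATP across the inner mitochondrial membrane. It was at 2.7, 4.02 and 3.88 FPKM in daf-16 embryos at 500 mM, against 67.3, 59.98 and 48.3 FPKM in N2 embryos, and at 0.25, 0.27 and 0.04 FPKM in ssu-1 embryos, against 15.04, 15.2 and 14.1 FPKM in N2 embryos. Its relative ant-1.1, the abundant form, had N2 changes of 0.571 and 0.974.

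T23F2.4, a gene for a protein of 56 residues on the X chromosome, kept a larger share of the N2 change in daf-16 embryos than in ssu-1 embryos. In daf-16 embryos it was at 129, 192 and 161 FPKM at 500 mM, against 626, 511 and 522 FPKM in N2 embryos of that experiment. In ssu-1 embryos it was at 1.32, 3.98 and 3.60 FPKM at 500 mM, against 279, 243 and 247 FPKM in N2 embryos of that experiment. The daf-16 libraries thus lay below N2 but far above their own level at 50 mM (3.51, 6.20 and 5.16 FPKM), while the ssu-1 libraries overlapped theirs (2.84 and 1.57 FPKM). Its share kept was 30.3% in daf-16 embryos and 4.69% in ssu-1 embryos.

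**Figure D2:**
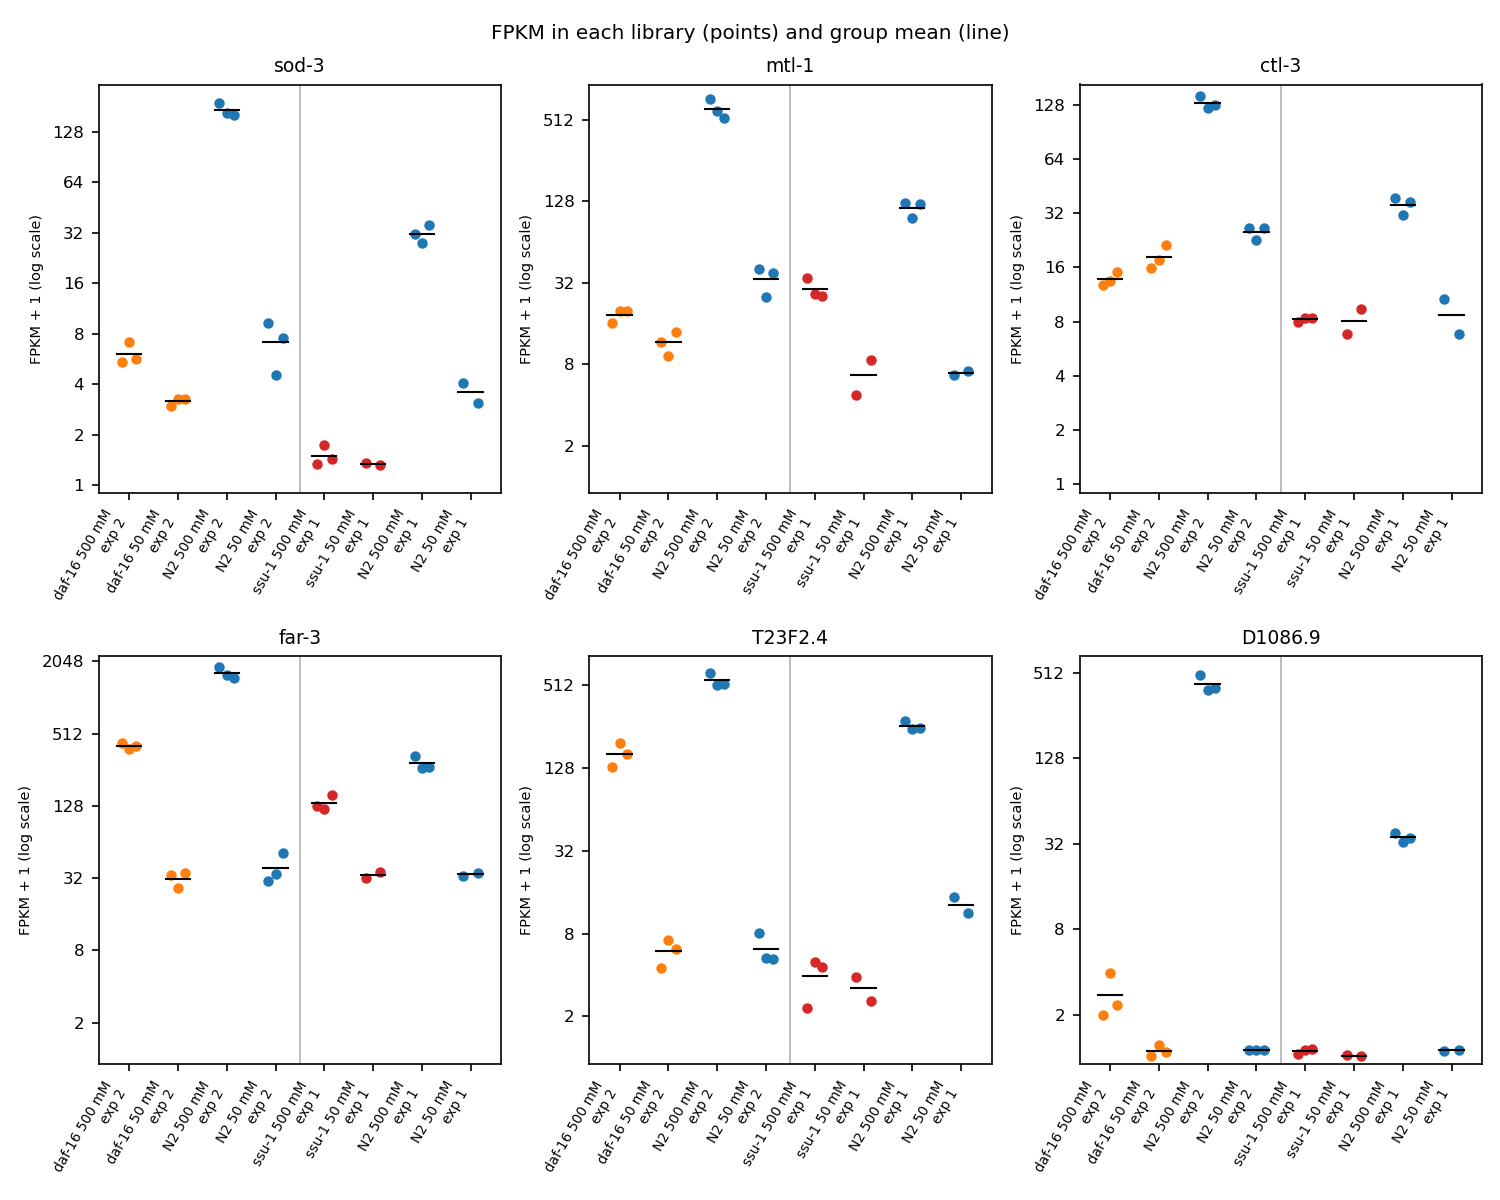
FPKM + 1 on a log axis for 6 of the 45 genes in each library (points), with the group mean (line), by genotype and NaCl concentration, experiment 2 left of the vertical line and experiment 1 right of it. In every panel the mutant libraries at 500 mM lie below the N2 libraries at 500 mM, and T23F2.4 in daf-16 embryos (129 to 192 FPKM) and far-3 in both mutants remain above their 50 mM levels.

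Of the 45 genes, 5 lie next to another member on the chromosome. C54F6.15, C54F6.6 and C54F6.5 are consecutive on chromosome V, and F15E6.4 and F15E6.10 are adjacent on chromosome IV. All 5 encode short proteins, of 93, 93, 55, 71 and 66 residues in that order. C54F6.15 was at 0, 0 and 0.19 FPKM in daf-16 embryos at 500 mM, against 88.9, 72.2 and 72.2 FPKM in N2 embryos, and was listed at 0 in all 5 ssu-1 libraries, against 11.4, 10.8 and 8.30 FPKM in N2 embryos at 500 mM. C54F6.6 followed it at a lower level, at 0.27, 0.17 and 0.09 FPKM in daf-16 embryos at 500 mM, against 46.4, 35.4 and 28.4 FPKM in N2 embryos. The third gene of the row differed in daf-16 embryos, where C54F6.5 was at 12.4, 19.9 and 14.7 FPKM at 500 mM, against 161, 113.06 and 116 FPKM in N2 embryos, and kept 13.1% of the N2 change. C54F6.6 and C54F6.15 have the same length, their sequences were not compared here, and if they are near copies their reads could have been split between them. The annotated genes on either side of the row did not meet the rule: srb-19 and srb-18 had N2 changes of at most 0.163 and swt-2 of at most 0.515, and C54F6.3 had 2.49 in experiment 2 and 0.932 in experiment 1.

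F15E6.4 was at 2.63, 2.22 and 1.00 FPKM in daf-16 embryos at 500 mM, against 130.4, 96.3 and 106 FPKM in N2 embryos, and at 0.87, 0 and 0 FPKM in ssu-1 embryos, against 32.1, 36.0 and 38.5 FPKM in N2 embryos. In N2 embryos at 50 mM it was listed at 0 or at most at 0.26 FPKM, so its N2 change was the largest of all 45 in experiment 1 (35.5). F15E6.10 beside it was higher at 50 mM and had smaller N2 changes (7.07 in experiment 2 and 2.69 in experiment 1). It was at 3.54, 2.14 and 2.86 FPKM in daf-16 embryos at 500 mM, against 66.2, 57.5 and 51.8 FPKM in N2 embryos. In ssu-1 embryos it was at 10.9, 8.98 and 8.76 FPKM at 500 mM, against 30.2, 35.5 and 36.9 FPKM in N2 embryos. Its shares were 7.29% with daf-16 and 34.8% with ssu-1. The ssu-1 libraries at 500 mM overlapped those at 50 mM (10.02 and 8.35 FPKM), so the 34.8% goes with the small N2 change and not with induction left. The annotated genes beside this pair, F15E6.9, F15E6.3, F15E6.5 and dct-7, had N2 changes between 0.333 and 1.5.

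The transthyretin-related family, of secreted proteins, gave ttr-25 and ttr-23, out of 45 ttr genes that passed the filter. ttr-25 was at 21.4, 27.4 and 21.4 FPKM in daf-16 embryos at 500 mM, against 345, 303 and 253 FPKM in N2 embryos, and at 8.44, 5.27 and 7.12 FPKM in ssu-1 embryos, against 44.2, 44.1 and 48.9 FPKM in N2 embryos. ttr-23 was at 10.7, 13.5 and 12.9 FPKM in daf-16 embryos at 500 mM, against 102, 84.7 and 79.4 FPKM in N2 embryos. Both encode 140 residues, both had a change under 1 in daf-16 embryos (0.718 and 0.901) and both had a change near 1 in ssu-1 embryos (1.11 and 1.09). ttr-26, a neighbor of ttr-25 by sequence name, had N2 changes of 1.86 in experiment 2 and 3.02 in experiment 1. It thus missed the limit on the N2 change in experiment 2, and its change of 1.86 in ssu-1 embryos was also above the 50% limit. In all, 17 families by gene name hold a member, and the 15 besides gst and ttr hold 1 each. Genes left out by name are not in this count, such as sod-5, which met the limits and is of the same family as sod-3.

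The galectin gene lec-4, whose kind of protein binds galactosides, was at 19.1, 21.2 and 19.96 FPKM in daf-16 embryos at 500 mM, against 243, 217 and 207 FPKM in N2 embryos, which was below its own level at 50 mM (36.5, 32.8 and 38.8 FPKM). In ssu-1 embryos it averaged 13.4 ± 1.17 FPKM at 500 mM, against 45.2 ± 1.71 FPKM in N2 embryos (SD, n = 3 each), above its level at 50 mM (6.13 and 7.58 FPKM). Each of the other named genes (the peptide genes nlp-32 and nspe-4, the cuticle collagen gene col-108 and dao-6) kept 31.6% or less in daf-16 embryos, and in ssu-1 embryos nspe-4 kept 44% and the others 18.3% or less. nspe-4 belongs to a family of nematode-specific peptides and was at 28.6, 35.8 and 23.8 FPKM in daf-16 embryos at 500 mM, against 129.9, 118 and 119 FPKM in N2 embryos.

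Only a sequence name was found for 26 of the 45 genes, among them D1086.9, T23F2.4 and the C54F6 and F15E6 genes described above. Their share kept had a median of 13.8% in daf-16 embryos and 6.8% in ssu-1 embryos. R09E10.13, which encodes the shortest protein of the 45, of 53 residues, kept 19.7% and 42.7%. It was at 9.10, 12.8 and 10.3 FPKM in daf-16 embryos at 500 mM, against 71.2, 64.0 and 49.9 FPKM in N2 embryos, and at 10.95, 7.98 and 8.57 FPKM in ssu-1 embryos, against 24.9, 14.4 and 20.1 FPKM in N2 embryos. At 50 mM no library had more than 0.46 FPKM of it, so it remained higher at 500 mM in both mutants. So did T12D8.5, at 45.5, 57.9 and 49.8 FPKM in daf-16 embryos at 500 mM, against 374, 305 and 302 FPKM in N2 embryos, and at 20.7, 18.3 and 24.8 FPKM in ssu-1 embryos, against 52.2, 44.7 and 47.1 FPKM in N2 embryos. F56D6.9, F14F9.2 and Y6E2A.4 were at the other end, with 0.138%, 0.597% and 0.576% kept in daf-16 embryos and 3.79%, 7.93% and 3.01% in ssu-1 embryos. Among the rest, T03F6.6, R03H10.1, F47B8.2, W10C8.6 and C27B7.9 kept 20.4%, 21.2%, 31.1%, 26.9% and 25.9% in daf-16 embryos, and 42.8%, 41.6%, 36.3%, 27.6% and 12.9% in ssu-1 embryos. F55B12.10, F55C12.6 and R05D7.2 kept less than 10% in both. W02D7.11 was listed at 0 in all 10 libraries at 50 mM, so the change used here is its mean FPKM at 500 mM, which was 1.04 in daf-16 embryos, against 50.6 in N2 embryos of experiment 2, and 0.777 in ssu-1 embryos, against 8.23 in N2 embryos of experiment 1.

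The share kept ran from 0% to nearly the limit set by the rule, but it does not measure the induction left. A gene not raised at 500 mM in a mutant still has a share, as lec-4 did in daf-16 embryos (13.7% at a change of 0.542). In ssu-1 embryos glod-4 had a share of 43.6% at a change of 1.04. The median share of the N2 change that was kept was 11.5% in daf-16 embryos (range 0.0771% to 41.4%) and 16% in ssu-1 embryos (range 0% to 46.9%). Under 10% was kept by 21 genes in each mutant, and 15 genes were under 10% in both. Between 25% and 50% was kept by 10 genes in daf-16 embryos and 17 in ssu-1 embryos. A change above 2 remained for 14 genes in daf-16 embryos (11.2% of all genes tested had one) and for 5 in ssu-1 embryos (1.08% of all), and 4 had one in both, far-3, T12D8.5, R09E10.13 and nspe-4. For 30 genes neither mutant had a change above 2. The share kept was larger in daf-16 embryos for 18 genes and larger in ssu-1 embryos for 27. The N2 changes that divide the shares were mostly smaller in experiment 1 (median 5.99, against 20.9 in experiment 2), which raises the shares in ssu-1 embryos. The mutant changes themselves had a median of 0.746 in ssu-1 embryos and 1.32 in daf-16 embryos. A change under 1 need not be a fall at low FPKM. In ssu-1 embryos R05D7.2 rose from a mean of 0.255 to 0.693 FPKM at a change of 0.552. The mean at 500 mM was under 1 FPKM for 21 genes in ssu-1 embryos and 8 in daf-16 embryos, so the medians are not measured alike. Neither the counts of larger shares nor these medians show in which mutant more induction was left. Over the 45 genes the shares in the mutants had a Spearman correlation of 0.737. These points share libraries and the division by the N2 change, so the correlation is a description.

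**Figure D3:**
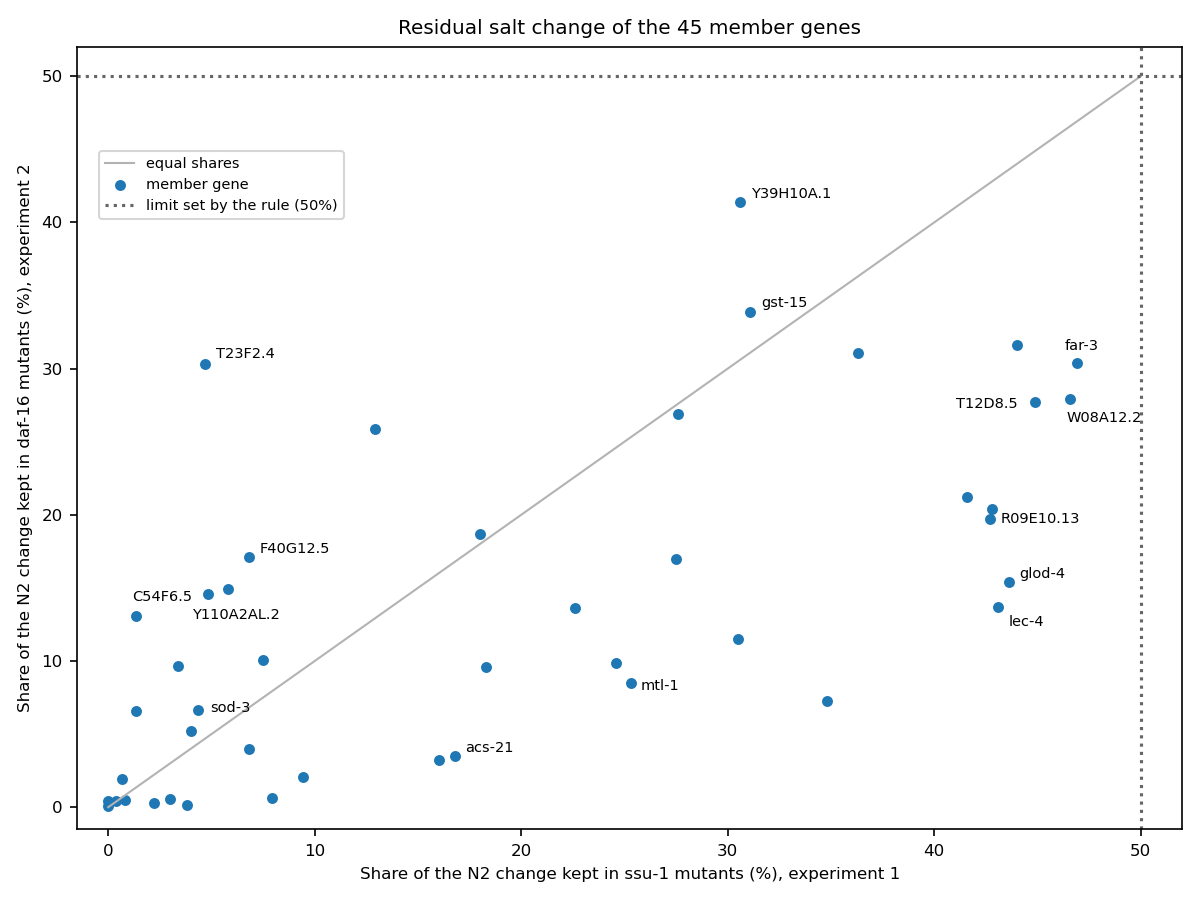
Share of the N2 change kept in daf-16 embryos (vertical axis, experiment 2) against that kept in ssu-1 embryos (horizontal axis, experiment 1), in percent, for each of the 45 genes, with the limit of the rule dotted at 50% and equal shares as a gray line. T23F2.4 lies far above the line (30.3% and 4.69%), lec-4 far below it (13.7% and 43.1%), and 15 genes lie under 10% on both axes.

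Within each mutant, some of the 45 genes were still higher at 500 mM than at 50 mM and some were lower, judged by libraries that did not overlap. In daf-16 embryos each library at 500 mM was above each at 50 mM for 29 genes and below for 9, whereas over all genes tested the shares were 39.5% and 43.8%. In ssu-1 embryos the numbers were 20 above and 2 below, whereas over all genes tested the shares were 30.4% and 30.7%. The rule used these contrasts, so the counts are read no further. For some genes the mean at 500 mM in the mutant was below the N2 mean at 50 mM, as for acs-21 and ttr-25 in both mutants. How often this held over all genes was not counted, so nothing is read from it.

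The members nearest to the limits of the rule show how it was drawn. On the N2 change in experiment 1 the nearest inside were T03F6.6 (2.03) and gst-29 (2.181), and the nearest outside ugt-6 (1.897) and hint-3 (1.831). In experiment 2 the nearest inside were gst-29 (2.198) and W08A12.2 (2.342), and no gene missed on that limit alone. On the share kept in daf-16 embryos the nearest inside were Y39H10A.1 (41.4%) and gst-15 (33.89%), and the nearest outside srlf-12 (55.82%) and the ferritin gene ftn-1 (63.04%). On the share kept in ssu-1 embryos the nearest inside were far-3 (46.94%) and W08A12.2 (46.58%), and the nearest outside M60.4 (50.18%) and add-2 (50.55%).

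The rule did not compare the genotypes at 50 mM, but the levels at 50 mM are the denominators of its changes, so that a higher mutant level and a lower N2 level at 50 mM both favored membership. The tests at 50 mM are therefore not independent of the rule. At 50 mM, 6 of the 45 genes were lower in daf-16 embryos than in N2 embryos by limma (adjusted p under 0.05 over all 14868 genes tested) and 0 were higher (at an unadjusted p under 0.05, 9 were lower and 0 higher). The called share of 13.3% stood beside 1.1% of all genes called lower and 2.58% called higher. They are mtl-1, sod-3, nlp-32, T12D8.5, gst-29 and ctl-3. mtl-1 was at 10.7, 8.18 and 12.95 FPKM in daf-16 embryos, against 39.3, 24.2 and 36.8 FPKM in N2 embryos, with no overlap (log2 difference -1.56, SE 0.19, adjusted p = 0.000915). sod-3 was at 1.98, 2.28 and 2.25 FPKM in daf-16 embryos, against 8.21, 3.56 and 6.51 FPKM in N2 embryos, again with no overlap (log2 difference -1.10, SE 0.21, adjusted p = 0.0127). Both are DAF-16 targets by textbook knowledge, and they were thus lower in this mutant without high salt as well. T12D8.5 was at 5.50, 4.51 and 6.48 FPKM in daf-16 embryos, against 12.8, 9.31 and 9.50 FPKM in N2 embryos (log2 difference -0.83, SE 0.14, adjusted p = 0.00932). nlp-32 was at 2.52, 2.21 and 4.43 FPKM in daf-16 embryos, against 8.71, 5.71 and 6.88 FPKM in N2 embryos (log2 difference -1.02, SE 0.21, adjusted p = 0.0213). For gst-29 and ctl-3 the log2 differences were -0.84 (SE 0.21, adjusted p = 0.0432) and -0.48 (SE 0.12, adjusted p = 0.042), close to the threshold. Over all 45 genes 36 had a log2 difference below 0, with a median of -0.17, and the median over all genes tested was 0.06. The number of calls rested on single libraries. It was 1 without daf-16 replicate 2 at 50 mM, when mtl-1 alone was called, 3 without N2 replicate 3 and 10 without N2 replicate 4, and 11 without both of those N2 libraries, whose library numbers belong to another run of numbers than the rest of experiment 2.

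In ssu-1 embryos 4 of the 45 genes were lower than in N2 embryos at 50 mM by limma (8.89%, beside 0.481% of the 13924 genes tested) and 0 were higher (0.165% of all). At an unadjusted p under 0.05 these numbers were 12 and 0. gst-15 was at 1.51 and 1.51 FPKM in ssu-1 embryos, against 10.6 and 8.70 FPKM in N2 embryos (log2 difference -2.08, SE 0.10, adjusted p = 4.12e-06). T23F2.4 was at 2.84 and 1.57 FPKM in ssu-1 embryos, against 13.7 and 10.2 FPKM in N2 embryos (log2 difference -2.03, SE 0.31, adjusted p = 0.0143). Y39H10A.1 was at 0.41 and 1.03 FPKM in ssu-1 embryos, against 5.55 and 3.19 FPKM in N2 embryos (log2 difference -1.63, SE 0.27, adjusted p = 0.0222). In these genes the ssu-1 libraries lay below the N2 libraries with no overlap, as they did for sod-3, which was at 0.36 and 0.32 FPKM in ssu-1 embryos, against 3.06 and 2.10 FPKM in N2 embryos (log2 difference -1.40, SE 0.18, adjusted p = 0.00456). Over all 45 genes 32 had a log2 difference below 0, with a median of -0.10, and the median over all genes tested was 0.02. The limit set by the filter holds for the called share, the count and the median here as well. With 2 libraries a group the calls are fragile, since without N2 replicate 1 at 50 mM only 1 was left, that of gst-15. sod-3 was the 1 gene called in both mutants, and whether any gene's difference at 50 mM was larger in one mutant than in the other was not tested. Nothing in the labels says that libraries of a group came from separate cultures, so the p-values measure the spread between these libraries.

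**Figure D4:**
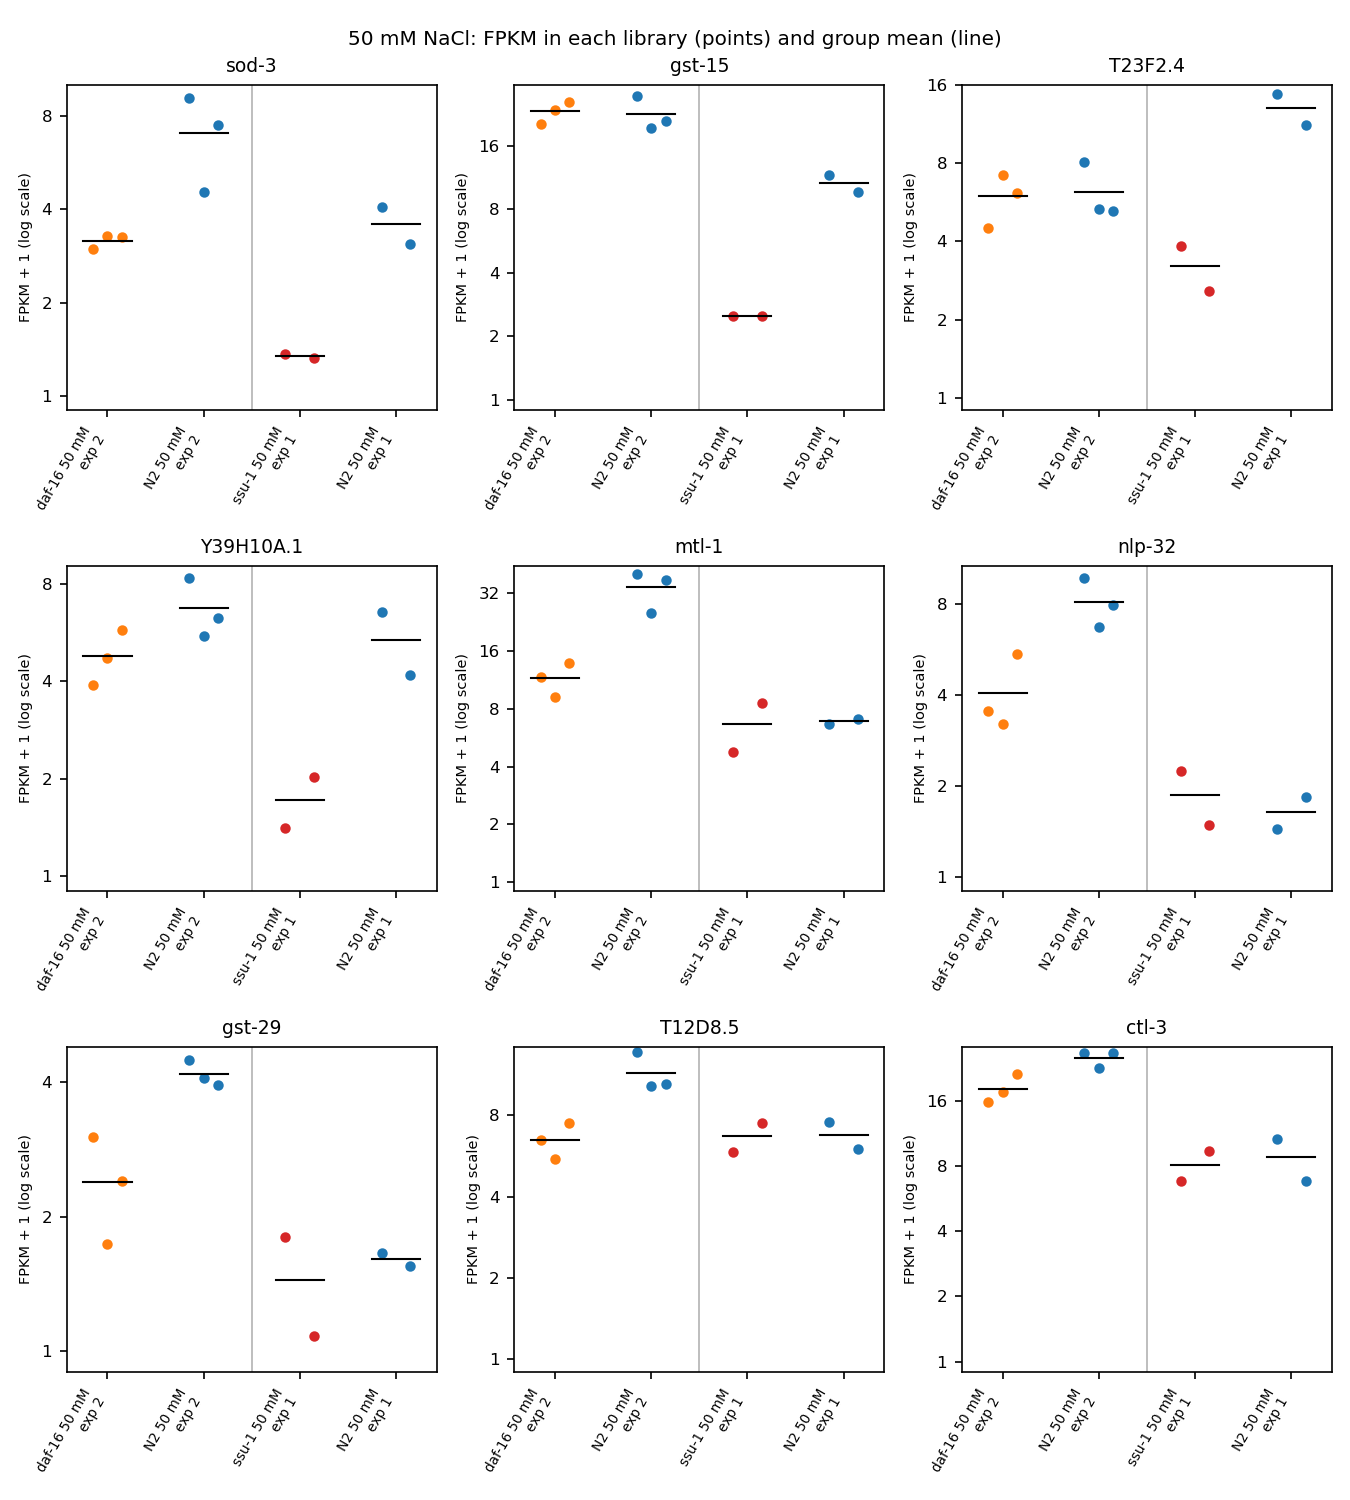
FPKM + 1 on a log axis at 50 mM NaCl for the 9 genes called lower in at least 1 mutant, in each library (points) with the group mean (line), daf-16 and N2 embryos of experiment 2 on the left and ssu-1 and N2 embryos of experiment 1 on the right. sod-3 is low in both mutants, gst-15 is low in ssu-1 embryos (1.51 FPKM in both libraries) but in daf-16 embryos overlaps N2, and mtl-1 is low in daf-16 embryos but in ssu-1 embryos overlaps N2.

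The salt change in N2 embryos was mostly larger in experiment 2 than in experiment 1. The ratio of the changes, experiment 2 over experiment 1, had a median of 3.08 and was above 1 for 43 of the 45 genes, the lowest being 0.973. The rule asked for a change above 2 in both experiments, which 1001 genes had in experiment 2 and 288 in experiment 1. Since these changes chose the genes, they are a description, and nothing is read from the interaction fit of limma, in which 33 of the 45 genes were larger in experiment 2 (22.4% of all 15050 genes) and 0 smaller (18.6% of all; 35 and 0 at an unadjusted p under 0.05). On the log2(FPKM + 1) scale, which understates the change of genes with low FPKM, the difference was largest for D1086.9 (3.56, SE 0.26), C54F6.15 (3.08, SE 0.21) and clx-1 (2.91, SE 0.24), and its median over the 45 genes was 1.53. lec-4, mtl-1, gst-29 and W08A12.2 had nearly the same N2 change in both experiments, with ratios of 0.996, 1.09, 1.01 and 0.973. In N2 embryos lec-4 was at 243, 217 and 207 FPKM at 500 mM and 71.1, 40.1 and 54.6 FPKM at 50 mM in experiment 2, against 46.1, 43.3 and 46.3 FPKM and 11.6 and 9.18 FPKM in experiment 1, so both its levels were higher in experiment 2. A batch and the experiment cannot be told apart here.

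The loss in daf-16 embryos and the loss in ssu-1 embryos can be set side by side on the log2 scale, each as the mutant's change minus the N2 change of its experiment. The rule used these values too, so they are a description, and nothing is read from the fit, in which the loss was larger with daf-16 for 19 genes (9.77% of all) and smaller for 1 (5.3% of all). The difference, daf-16 minus ssu-1, had a median of -0.92 and was below 0, a larger loss in daf-16 embryos, for 39 of the 45 genes. It was farthest from 0 for F14F9.2 (-3.18, SE 0.22), C54F6.15 (-3.07, SE 0.29), F56D6.9 (-2.93, SE 0.41) and clx-1 (-2.89, SE 0.34). At 500 mM none of these 4 genes exceeded 1.16 FPKM in any mutant library, and the difference of their N2 changes, experiment 2 minus experiment 1, was nearly as large (2.89 for F14F9.2, 3.08 for C54F6.15, 2.63 for F56D6.9 and 2.91 for clx-1). T23F2.4 was the farthest in the other direction (2.33, SE 0.53).

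The changes left in the mutants, as the log2 salt change in daf-16 embryos minus that in ssu-1 embryos, are likewise a description, since the rule set a limit on each, and a higher one in experiment 2, where most N2 changes were larger. Nothing is read from the fit, chosen after the data were seen, in which 16 genes were larger in daf-16 embryos (29.6% of all) and 6 smaller (32.6% of all). The difference had a median of 0.16 and was above 0 for 27 of the 45 genes. It was largest for T23F2.4 (4.51, SE 0.38), followed by F40G12.5 (2.75, SE 0.24), C54F6.5 (2.49, SE 0.58), Y110A2AL.2 (2.30, SE 0.21) and F41C3.7 (1.86, SE 0.25). F40G12.5 was at 8.90, 10.8 and 8.93 FPKM in daf-16 embryos at 500 mM and 0.68, 0.52 and 0.53 FPKM at 50 mM, whereas in ssu-1 embryos it was at 0.91, 1.11 and 0.51 FPKM at 500 mM and 0.80 and 0.88 FPKM at 50 mM. Y110A2AL.2 was alike, at 4.35, 7.01 and 5.31 FPKM in daf-16 embryos at 500 mM, while no ssu-1 library was above 0.27 FPKM. In the other direction stood lec-4 (-1.69, SE 0.21), mtl-1 (-1.46, SE 0.32), W08A12.2 (-0.82, SE 0.26), dhs-31 (-0.78, SE 0.24) and ttr-25 (-0.76, SE 0.25).

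Of 32 genes listed as DAF-16 targets from textbook knowledge, 28 passed the filter and 4 are among the 45, namely sod-3, mtl-1, ctl-3 and far-3. The N2 change was above 2 in both experiments for 12 of the 28, beside 202 of all 13792 genes, and 4 of the 12 (hsp-12.3, hsp-12.6, lea-1 and sod-5) were left out by name. Those that had such a change in N2 but kept more than 50% of the change in at least 1 mutant include icl-1, a glyoxylate cycle enzyme, with changes of 14.5 in daf-16 embryos, against 5.92 in N2 embryos, and 3.42 in ssu-1 embryos, against 3.32 in N2 embryos. The list was written with earlier results of these data known and is no independent evidence.

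The limits of the rule did not use coding length or chromosome. However, 14 genes that met them were left out by name, among them genes of the F38E11 cluster and of C37A5. The values here are for the genes after that removal. The longest coding transcripts of the 45 genes had a median of 567 bases (range 162 to 2058), against 1107 bases for the 13106 other protein-coding genes that passed the filter. The share under 600 bases was 51.1% (23 genes), against 21% of the others, and the encoded proteins had a median of 188 residues, against 368. By chromosome, 18 of the 45 (40%) lie on chromosome V, against 19.6% of the others, and 2 (4.44%) on the X chromosome, against 15.2%. The remaining genes are spread over chromosomes II (8), IV (8), III (6) and I (3). These are counts set beside those of all genes, with no test, about features that many of the 45 genes lack, and the 5 genes that lie next to another member are not independent in them.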

How the data were processed

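RNA-seq libraries (NeoPrep, paired-end, stranded) of embryos were mapped by the authors to the ce10 assembly with RSEM 1.2.15 and Bowtie 1.0.1, and the authors deposited FPKM per gene and library. The deposited FPKM table has 45461 rows, 1 of them without a gene name and left out. The authors' own tests used rounded counts with DESeq2, which were not used here. FPKM hold no counts, so the precision of single values is known only from the spread between libraries. Gene symbols, chromosomes, coding lengths and gene order came from RefSeq and Ensembl tables of another assembly, WBcel235 (44079 identifiers matched, all 45 members among them), and no coordinates are given. No promoter or protein sequences were used, so the planned motif count was not run.

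Groups were taken from the sample titles. The experiments were split by replicate number, with N2 replicates 1 to 3 of 500 mM and 1 to 2 of 50 mM in experiment 1 and the rest in experiment 2. The members and lists were chosen with earlier results of these data known. Linear models with a trended prior were fitted in limma 3.58.1 (R 4.3.3) to log2(FPKM + 1), over genes that reached an FPKM of 1 in 2 or more of the fitted libraries, with Benjamini-Hochberg adjustment over all genes tested and a threshold of 0.05. The 50 mM comparisons were fitted within an experiment (10 or 12 libraries) and the others over all 22. The others compare salt changes that the rule used, so the report gives their differences and standard errors without p-values. Genes were named when among the 5 with the largest N2 change, share kept (largest and smallest) or difference in a test in either direction, in a family or neighborhood with 2 members, on the target list, or nearest to a limit of the rule. Other members were named after their values were seen, so that all 45 are accounted for. The tests were checked on simulated data. Alternatives were another pseudocount, no filter, rescaled or quantile-normalized FPKM, no trend, a replicate block, other limits of the rule and each library left out. Figures were drawn with matplotlib under Python.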

Additional observations from a re-analysis of the deposited data

Results flagged for a closer look

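The rule chose the genes by the changes compared here, so the counts and differences below are descriptions and support nothing further. The N2 salt change differed between the experiments for 33 of the 45 genes in the interaction fit of limma, all larger in experiment 2 (over all genes tested, 22.4% were larger and 18.6% smaller). The largest log2 differences, experiment 2 minus experiment 1, were 3.56 for D1086.9, 3.08 for C54F6.15, 2.91 for clx-1, 2.89 for F14F9.2 and 2.63 for F56D6.9. The experiments share no libraries.

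The loss of the N2 change differed between the mutants for 20 genes in the same kind of fit, and was larger in daf-16 embryos for 19 of them (over all genes tested, 9.77% had a larger and 5.3% a smaller loss there). Of the 19, 17 also had a larger N2 change in experiment 2, and mutant and experiment cannot be told apart. On the log2 scale, daf-16 minus ssu-1, the difference was -3.18 for F14F9.2, -3.07 for C54F6.15, -2.93 for F56D6.9, -2.89 for clx-1 and -2.41 for D1086.9. T23F2.4 alone among the 20 had a smaller loss in daf-16 embryos (2.33).

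The salt change left in the mutants differed between them for 22 genes, in a comparison chosen after the data were seen (over all genes tested, 29.6% were larger and 32.6% smaller in daf-16 embryos). The log2 difference, daf-16 minus ssu-1, was 4.51 for T23F2.4, 2.75 for F40G12.5, 2.49 for C54F6.5, 2.30 for Y110A2AL.2 and 1.86 for F41C3.7. It was -1.69 for lec-4, -1.46 for mtl-1, -0.82 for W08A12.2, -0.78 for dhs-31 and -0.76 for ttr-25. Mutant and experiment cannot be told apart in it either.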

How the results depend on the processing

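The number of genes that met the rule depended most on how the change was formed. It was 111 with 0.1 added to both means (44 of them among the 45) and 26 with the mutant change under 25% of the N2 change, and between 43 and 51 with each library left out. The median share kept in ssu-1 embryos was 18% with 0.1 and 24.1% with 1 added to both means, and 14.1% to 16.7% with each library left out. In daf-16 embryos it was 14.4% with 1 added to both means and 10.5% to 12.8% with each library left out. At 50 mM the calls in ssu-1 embryos numbered 2 with no filter on low FPKM and 1 to 6 with each library left out. In daf-16 embryos they numbered 11 without the 2 N2 libraries of the other run of library numbers and 1 to 10 with each library left out. In the fits of salt changes, which the rule used, the number with a differing N2 change was 30 to 35, that with a differing loss 14 to 23 and that with a differing residual change 18 to 24 with each library left out.

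Libraries with the same replicate number did not deviate together (18 pairs, correlations between -0.38 and 0.28, 5 of them over 0.1), so the numbers do not pair the samples. With the replicate number as a block the calls at 50 mM numbered 0 in daf-16 embryos, where the genotypes share only number 3, and 3 in ssu-1 embryos, and the other counts were 35, 22 and 23. For the genes called in the tests, 2224 values under an alternative kept their direction and side of the threshold, 129 no longer passed it and 0 reversed. Most of these values come from the fits of salt changes, which the rule used. The pooled count therefore does not show how stable the calls at 50 mM are, which rested on single libraries. Depth limits genes near or under 1 FPKM.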
